A study of Mus musculus with 800 samples.

Results

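Acetylcholine signalling in the sorted nuclei was read from 8 genes, given by symbol and found by their Ensembl identifiers among the 32285 genes of the count table. Chat, Slc18a3 and Slc5a7 serve the acetylcholine-releasing cell, Ache ends the signal, and Chrm1, Chrm2, Chrm3 and Chrm4 encode muscarinic receptors. The data are 800 single nuclei, 40 for each of 20 adeno-associated virus vectors packaged in the PHP.eB capsid, from mice that all carried such a vector. Every label gives the genotype as C57Bl/6J, the tissue as anterior lateral motor cortex and the sort as nuclei with the YFP-tagged histone H2B that the vector encodes. The vectors carry hSyn1, CMV, DLX2.0 or hI56i as regulatory element, or 1 of 16 elements known by a code such as AiE0401h, and per the series design they were given at 5e11 vector genomes a mouse, with sorting 3 to 4 weeks later. The same text names the striatum and the primary visual cortex as sorted regions too, the age is given only as young adulthood, and no label names an animal or a nucleus from an uninjected mouse. Each vector is therefore 1 sample, sorting chose which nuclei were seen, and no vector is tested against another.

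Acetylcholine is made from choline and acetyl-CoA by choline acetyltransferase (Chat), loaded into synaptic vesicles by the vesicular transporter VAChT (Slc18a3), split in the synaptic cleft by acetylcholinesterase (Ache), and its choline is taken back up by the transporter CHT (Slc5a7). Of the muscarinic receptors, M1 (Chrm1) and M3 (Chrm3) couple to Gq proteins and phospholipase C, while M2 (Chrm2) and M4 (Chrm4) couple to Gi/o proteins, lower cyclic AMP and open GIRK potassium channels. The striatum holds its own cholinergic interneurons, whereas most acetylcholine in the cortex comes from axons of basal forebrain neurons. M2 and M4 also act as autoreceptors on cholinergic neurons, and M4 is known as a receptor of striatal projection neurons of the Drd1 type.

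The members lie on 7 chromosomes of the mm10 mouse genome, at positions taken from the GENCODE M21 annotation. Chat (ENSMUSG00000021919) spans chr14:32408203-32465989 on the minus strand and has 17 exon blocks. Slc18a3 (ENSMUSG00000100241) is a single exon at chr14:32462438-32464850 on the same strand, inside the annotated Chat gene, with starts 1139 bases apart. Reads of Slc18a3 thus fall inside Chat, and the rule by which the authors gave reads to overlapping genes is not given in the sources used here. Slc5a7 (ENSMUSG00000023945) lies at chr17:54273590-54299034 on the minus strand and overlaps no other gene. Ache (ENSMUSG00000023328) lies at chr5:137287519-137294466 on the plus strand, Chrm1 (ENSMUSG00000032773) at chr19:8663789-8683587 on the plus strand, and Chrm2 (ENSMUSG00000045613) at chr6:36388084-36528414 on the plus strand. Chrm3 (ENSMUSG00000046159) lies at chr13:9875486-10360847 on the minus strand, where 6 other annotated genes overlap it. Chrm4 (ENSMUSG00000040495) is annotated as a single block of 1440 bases at chr2:91927249-91928688 on the plus strand, while the RefSeq start lies 5060 bases upstream, and a count on the GENCODE block would leave out reads from before it. Since strand is lost in this protocol, for Chat, Ache, Chrm1, Chrm2 and Chrm3 reads of overlapping antisense genes cannot be told apart.

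The 250 bases before the RefSeq start (assembly GRCm38.p6) are shown for Chat and Slc5a7, which were read together in 4 nuclei, for Slc18a3, which was read in 3 of these, and for Ache, which was called in 3 of the 6 comparisons. They run 5′ to 3′ on the gene's strand, and capitals mark matches on either strand to 4 motifs, TAATTA (a homeodomain core), GGGCGG (the GC box), TATAAA (the TATA box) and CACGTG (an E-box).
Chat, chr14:32465910-32466159: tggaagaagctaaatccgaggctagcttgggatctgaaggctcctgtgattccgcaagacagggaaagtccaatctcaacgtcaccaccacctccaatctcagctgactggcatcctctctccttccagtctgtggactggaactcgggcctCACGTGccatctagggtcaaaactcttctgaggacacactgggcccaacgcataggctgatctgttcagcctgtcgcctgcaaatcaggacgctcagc
Slc18a3, chr14:32464851-32465100: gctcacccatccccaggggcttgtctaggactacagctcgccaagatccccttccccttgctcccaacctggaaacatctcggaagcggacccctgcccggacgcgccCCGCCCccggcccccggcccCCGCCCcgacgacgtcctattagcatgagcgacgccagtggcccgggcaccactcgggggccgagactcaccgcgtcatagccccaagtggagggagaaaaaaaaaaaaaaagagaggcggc
Slc5a7, chr17:54299035-54299284: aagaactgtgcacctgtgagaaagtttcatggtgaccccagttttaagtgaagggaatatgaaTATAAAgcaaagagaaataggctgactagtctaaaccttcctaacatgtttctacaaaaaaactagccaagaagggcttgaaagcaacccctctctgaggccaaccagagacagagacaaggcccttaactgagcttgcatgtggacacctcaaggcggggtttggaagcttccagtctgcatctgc
Ache, chr5:137288004-137288253: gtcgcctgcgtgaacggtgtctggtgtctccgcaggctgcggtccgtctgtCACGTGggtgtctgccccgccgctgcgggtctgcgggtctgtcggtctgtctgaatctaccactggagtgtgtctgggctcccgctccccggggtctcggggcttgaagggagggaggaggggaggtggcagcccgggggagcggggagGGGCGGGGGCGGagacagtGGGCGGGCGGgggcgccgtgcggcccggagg

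Ache had 4 GC boxes, 2 of them sharing bases, and an E-box, and its GC content in this window was 73.6%. Slc18a3 had 2 GC boxes and a GC content of 66.0%. Chat had an E-box that begins 98 bases before the start, and Slc5a7 had a TATAAA match that begins 187 bases before it. Among 32851 RefSeq promoters of the same length, 32.7% held GGGCGG, 12.4% TATAAA, 6.02% CACGTG and 4.84% TAATTA. The letters TAATTA were in none of the windows of the 7 members that RefSeq listed here, which leaves out Chrm1. The Slc18a3 window lies inside the annotated Chat gene, and the Ache window lies inside the GENCODE Ache gene, whose annotated start is further upstream.

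The nuclei held a median of 260170.5 counts, from 70 to 901264, with medians per vector of 209113 to 314832.5. Counts are reads and not molecules, since the libraries carry no molecular barcodes, and levels are given as CPM, counts scaled to a total of 1e6, either of 1 nucleus or of nuclei whose counts were summed. Of the 800 nuclei, 698 had at least 1000 genes and were sorted into classes by clustering without the 8 members and 53 other pathway genes. They were 106 astrocyte-like, 50 oligodendrocyte-like, 161 striatal projection neuron-like (SPN-like), 273 GABAergic-like and 108 glutamatergic-like nuclei. The SPN-like nuclei carry the cortical label, yet all 10 striatal markers, Ppp1r1b, Rgs9, Drd1 and Drd2 among them, were read in at least 25% of them. All 7 glutamatergic, 8 astrocyte and 9 oligodendrocyte markers, and 8 of 11 GABAergic ones, passed the same share in their own class. None of 7 cholinergic interneuron markers reached it in any class.

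Reads of Chrm3 and Ache were common, and reads of the genes that make and recycle acetylcholine were rare. Among the 800 nuclei Chrm3 was read in 280 (35%, exact 95% interval 31.7 to 38.4%), Ache in 171 (21.4%, 18.6 to 24.4%), Chrm1 in 90 (11.3%, 9.14 to 13.7%) and Chrm2 in 63 (7.88%, 6.10 to 9.96%). Chrm4 was read in 10 nuclei, Chat in 9, Slc18a3 in 6 and Slc5a7 in 4. Intervals here and below cover counting error only. Per kilobase of exon, the level summed over all 800 nuclei was 20.1 CPM for Ache, 9.09 for Chrm3, 5.09 for Chrm1, 2.75 for Chrm2, 1.22 for Slc18a3, 0.775 for Chat, 0.651 for Slc5a7 and 0.505 for Chrm4. Ache thus led per length although Chrm3 was read in more nuclei.

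**Figure D1:**
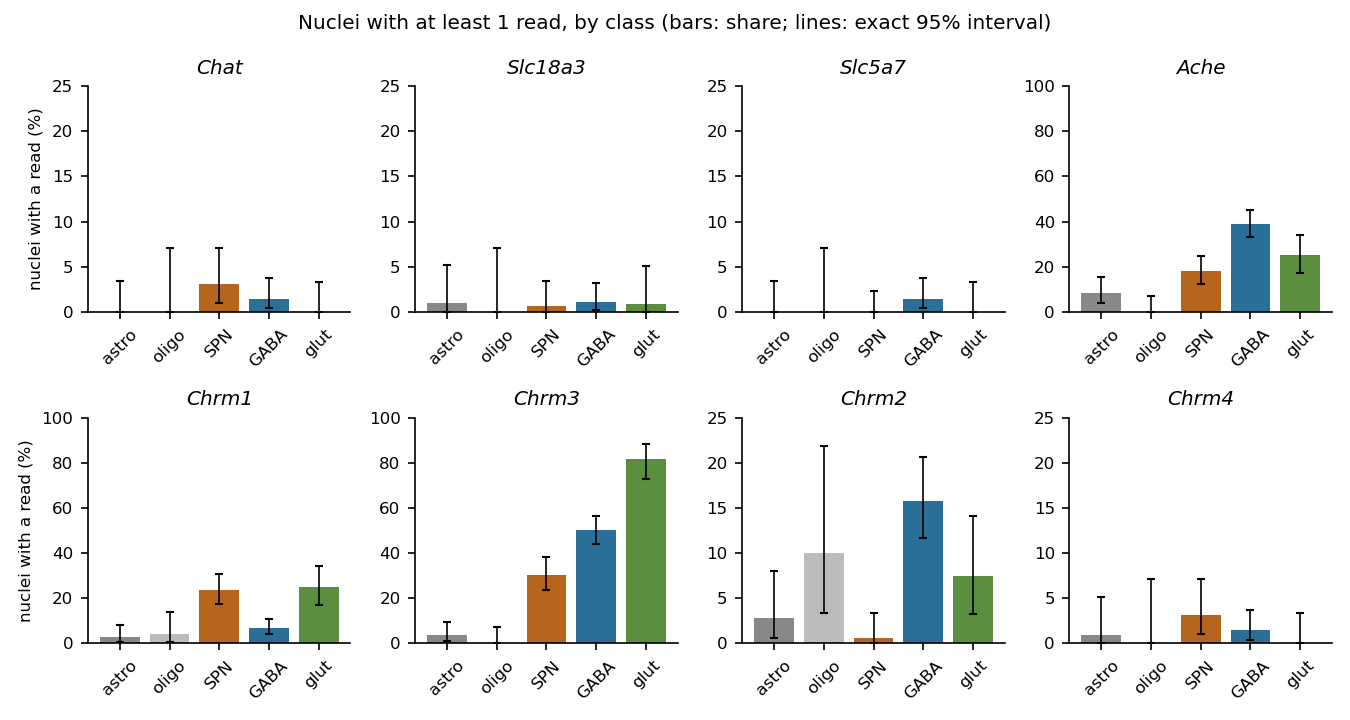
Share of nuclei with at least 1 read of each member (y axis, percent) in astrocyte-like, oligodendrocyte-like, SPN-like, GABAergic-like and glutamatergic-like nuclei (x axis), with exact 95% intervals as lines; the y axis ends at 100% for Ache, Chrm1 and Chrm3 and at 25% for the others. Chrm3 was read in 3.77% of astrocyte-like, 0 oligodendrocyte-like, 30.4% of SPN-like, 50.2% of GABAergic-like and 81.5% of glutamatergic-like nuclei, and Chat and Slc5a7 stay under 4% in every class.

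Chat and Slc5a7 reads met in 4 nuclei. Slc5a7, the choline transporter that is specific to cholinergic neurons, was read in these 4 of 800 nuclei alone, and Chat was read in all of them. In the nucleus numbered 23 of AiE0401h, Chat stood at 966 CPM, Slc18a3 at 240 CPM and Slc5a7 at 721 CPM. In nucleus 24 of the same vector, Chat stood at 916 CPM, Slc5a7 at 743 CPM and Slc18a3 at 0 reads. These 4 nuclei were the richest in Chat of the data set.

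Nucleus 37 of AiE0743m_3xC2 had 636 CPM of Chat, 432 of Slc18a3 and 735 of Slc5a7. Nucleus 25 of AiE0450h had 292 CPM of Chat, 647 of Slc18a3 and 756 of Slc5a7. Between these 4 nuclei Slc5a7 varied little, from 721 to 756 CPM, while Chat ran from 292 to 966 CPM. All 4 also had Ache reads, at 207, 325, 782 and 547 CPM in the same order of nuclei.

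Cholinergic markers that are no members were present in the same nuclei. Of 7 such genes, 6 were read in each of the 4, among them Lhx8 and Isl1, transcription factors of cholinergic neuron development, and Slc17a8, the vesicular glutamate transporter VGLUT3. The other gene, Gbx2, had 0 reads in all 4. Summed over the 7 genes, the marker level was 3159 to 3444 CPM in these nuclei. No other nucleus of the 800 had more than 2 of the markers, and 710 had 0. The 4 nuclei were grouped with GABAergic-like nuclei, in a cluster of 17 led by Adarb2, Tshz2 and Resp18 that has Lhx8 among its top 10 genes, and they had between 8.34 and 299 CPM of Gad1, the GABA-making enzyme. The other 13 nuclei of that cluster had no read of Chat, Slc18a3 or Slc5a7.

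Muscarinic autoreceptor genes were mostly unread in the 4 nuclei. Chrm2 had 247 CPM, from 89 reads, in the AiE0450h nucleus and 10.2 CPM, from 3 reads, in the AiE0743m_3xC2 nucleus. Chrm4, Chrm1 and Chrm3 had 0 reads in all 4. With 191012 to 359876 counts a nucleus, a gene at a few CPM would often have gone unread.

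**Figure D2:**
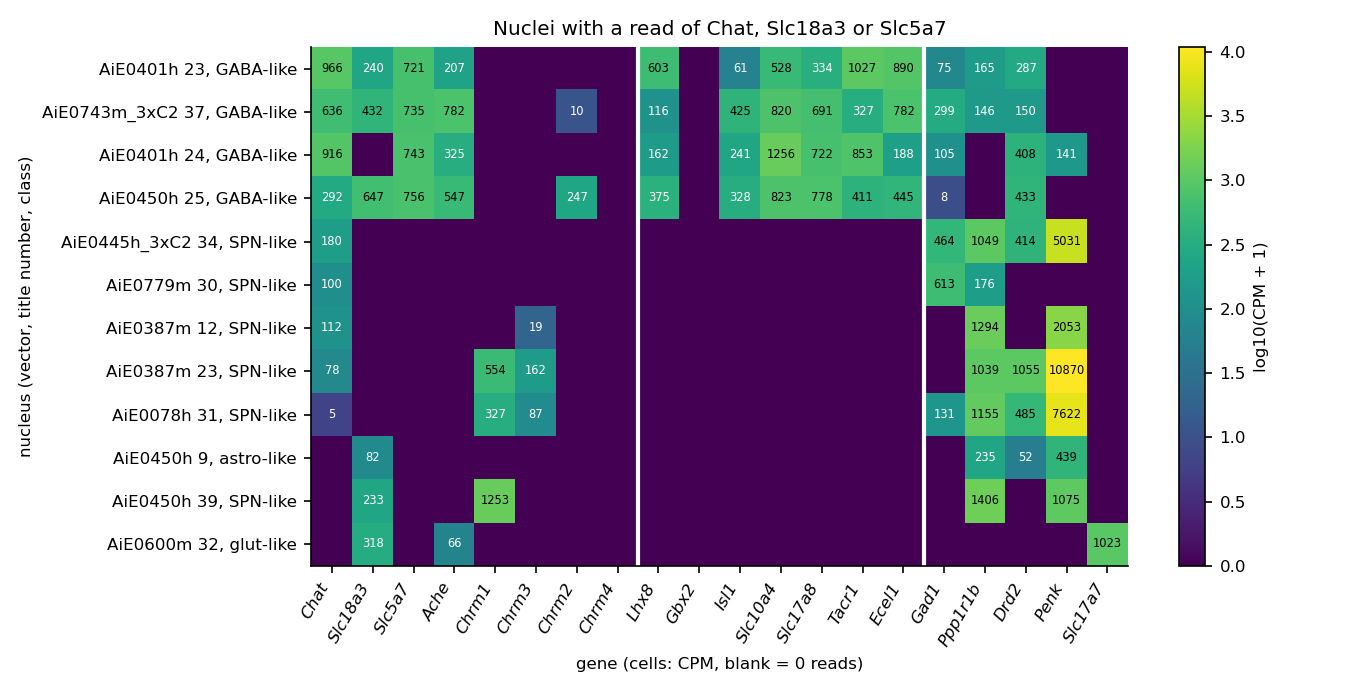
Levels in the 12 nuclei with a read of Chat, Slc18a3 or Slc5a7 (rows, named by vector, number in the sample title and class). Columns, parted by white lines, are the members, the 7 cholinergic markers and 5 genes listed for other classes. Colour gives log10(CPM + 1) and the printed number the CPM. The upper 4 rows hold Chat, Slc5a7 and 6 of 7 markers together, and the lower 8 hold none of the markers. Drd2, listed for other classes, was also read in all of the upper 4 rows, at 150 to 433 CPM.

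Chat reads stood alone in 5 further nuclei, all SPN-like. The count of reads was 40 in AiE0445h_3xC2 (180 CPM), 26 in AiE0779m (99.6 CPM), 23 and 15 in 2 AiE0387m nuclei (112 and 78.4 CPM) and 1 in AiE0078h (5.45 CPM). None had a read of Slc5a7, Slc18a3 or any of the 7 cholinergic markers. All 5 had Ppp1r1b, the striatal signalling protein DARPP-32, at 176 to 1294 CPM, and 3 were of the Drd2 type by their cluster. The share of SPN-like nuclei with a Chat read was 3.11% (1.02 to 7.10%), against 1.47% (0.401 to 3.71%) of GABAergic-like nuclei. By level the order was the other way round, with 2.66 CPM over all SPN-like nuclei and 9.25 CPM over all GABAergic-like nuclei, so no order of the classes is read from the share.

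Slc18a3 was read without Chat in 3 nuclei, namely 101 reads in a glutamatergic-like nucleus of AiE0600m, 85 in an SPN-like and 30 in an astrocyte-like nucleus of AiE0450h. These 3 had none of the 7 markers either. Chat was read in 0 of 108 glutamatergic-like, 0 of 106 astrocyte-like and 0 of 50 oligodendrocyte-like nuclei, which allows shares of up to 2.78%, 2.83% and 6.00% in these classes.

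By vector, Chat nuclei numbered 2 of 40 in AiE0401h, 2 in AiE0387m, and 1 each in AiE0078h, AiE0445h_3xC2, AiE0450h, AiE0743m_3xC2 and AiE0779m. The other 13 vectors had 0 of 40, which allows up to 7.5% each. With at least 5 reads asked for, 8 of the 9 nuclei remained and AiE0078h dropped out. The nuclei with both Chat and Slc5a7 came from AiE0401h (2), AiE0450h (1) and AiE0743m_3xC2 (1). A single nucleus more or less would change the order of these counts, and none is drawn.

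Ache was highest in GABAergic-like nuclei. Reads were found in 9 of 106 astrocyte-like (8.49%, 3.96 to 15.51%), 0 of 50 oligodendrocyte-like, 29 of 161 SPN-like (18.01%, 12.4 to 24.8%), 106 of 273 GABAergic-like (38.8%, 33.01 to 44.9%) and 27 of 108 glutamatergic-like nuclei (25%, 17.2 to 34.3%). Summed levels in that order were 21.8, 0, 28.1, 223 and 61.8 CPM. Where each nucleus was thinned to 150000 counts, the neuronal shares were 16.8% of SPN-like, 38.5% of GABAergic-like and 22.8% of glutamatergic-like nuclei.

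Within vectors, Ache was lower in SPN-like than in GABAergic-like nuclei in 12 of 12 vectors. The summed level per vector had a lowest, median and highest value of 0, 10.8 and 98.4 CPM in SPN-like nuclei and of 63.9, 223 and 441 CPM in GABAergic-like nuclei. The 2 ranges overlapped in their outer part, with means of 29.01 ± 35.2 and 227 ± 123 CPM (SD, n = 12 vectors). In a fit over all genes with vector as a block, the log2 difference was −3.85 (SE 0.75), with an adjusted p of 0.00151 by edgeR's quasi-likelihood test. An exact two-sided sign-flip permutation test of Ache alone gave p = 0.000488, the smallest that 12 vectors allow. Of the 3 members tested in this comparison Ache was the 1 called, against 8.53% of all genes tested called either way and 5.34% called lower, and the median log2 difference of all genes was −0.62. The call was lost where each nucleus was named by its own marker score (−4.28, adjusted p = 0.108) and in library series S40326 alone (−3.32, adjusted p = 0.117, 9 vectors); series S40324 alone had too few vectors with both classes for a fit.

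Against glutamatergic-like nuclei the higher Ache level of GABAergic-like nuclei did not pass the threshold. Per vector, the lowest, median and highest values were 63.9, 201 and 441 CPM in GABAergic-like nuclei and 0, 46.3 and 187 CPM in glutamatergic-like nuclei. Ache was higher in 11 of 12 vectors, AiE0078h being the exception, with a log2 difference of 2.87 (SE 0.87, adjusted p = 0.0762 by edgeR). In this comparison edgeR called 0 of 4 members, against 3.16% of all genes (1.69% called higher and 1.48% lower), while 3 had an unadjusted p under 0.05 and DESeq2 called 3. The Ache difference passed the threshold without CMV (3.13, adjusted p = 0.0467) and without hI56i (3.19, adjusted p = 0.0456).

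**Figure D3:**
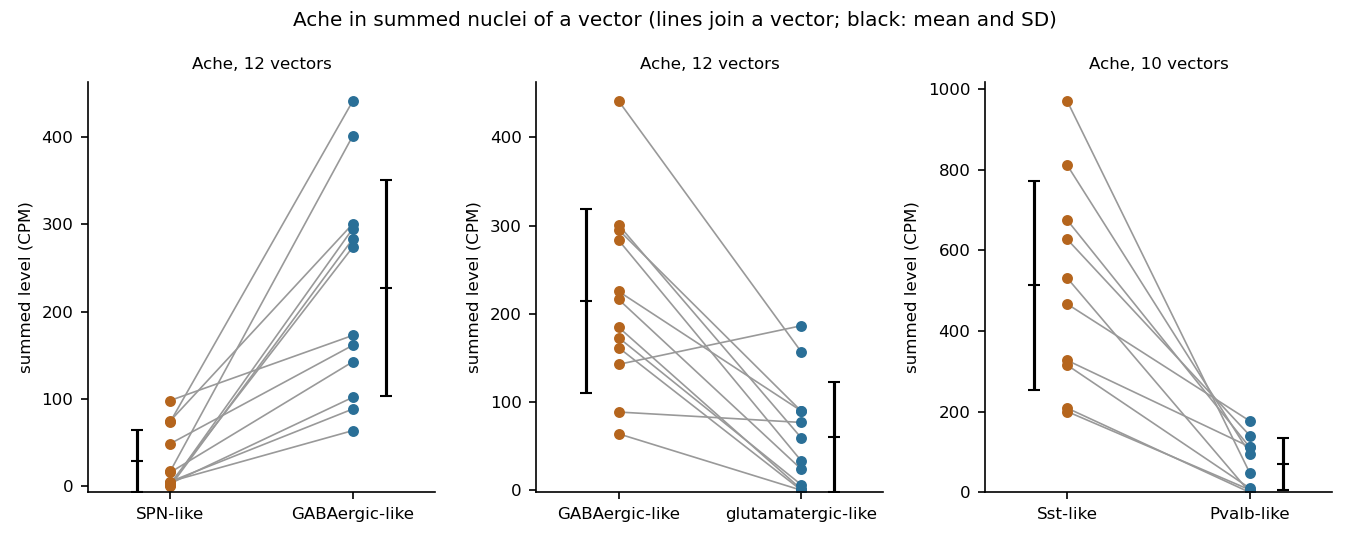
Summed Ache level (y axis, CPM) in SPN-like against GABAergic-like nuclei, GABAergic-like against glutamatergic-like nuclei and Sst-like against Pvalb-like nuclei. Each point is 1 vector, grey lines join the sums of a vector, and black marks give mean and SD. Sst-like sums exceed Pvalb-like sums in 10 of 10 vectors, and SPN-like sums lie below GABAergic-like sums in 12 of 12.

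Among GABAergic-like nuclei with a named subclass, Ache was higher in the Sst-like than in the Pvalb-like ones. Nuclei without a named subclass did not enter this comparison. It was read in 50 of 78 Sst-like nuclei (64.1%, 52.4 to 74.7%) and in 23 of 97 Pvalb-like nuclei (23.7%, 15.7 to 33.4%). Per vector, the lowest, median and highest sums were 201, 499 and 970 CPM in Sst-like nuclei and 0, 72.1 and 177 CPM in Pvalb-like nuclei, without overlap. Ache was higher in 10 of 10 vectors, with means of 513 ± 259 and 70.3 ± 65.5 CPM (SD, n = 10 vectors), a log2 difference of 3.9 (SE 0.83) and an adjusted p of 0.0242 by edgeR. It was the 1 member called of 3 tested, against 0.551% of all genes called either way, 0.331% higher and 0.22% lower.

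The Sst to Pvalb call for Ache rests on the setting. It was lost without AiE0078h (3.71, adjusted p = 0.0582), without AiE0445h_3xC2 (3.85, adjusted p = 0.0619) and without AiE0452h (3.73, adjusted p = 0.0587), and it was lost in 8 other alternatives of the fit. The adjusted p ran from 1.35e-07 to 1 over all alternatives, and the difference stayed positive in each. In library series S40326 alone the log2 difference was 3.47 (adjusted p = 0.0617, 6 vectors).

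A cluster of 24 nuclei led by Sst, Npy and Nos1 had the highest Ache level of the 6 GABAergic-like clusters, a pattern noticed after the values were seen and described without a test. Nos1 encodes neuronal nitric oxide synthase and was read in 22 of the 24 nuclei. They came unevenly from 12 vectors. AiE0401h gave the most nuclei, among them the one with the most Ache (1673 CPM). Ache was read in 21 of these 24 nuclei (87.5%, 67.6 to 97.3%), with a median of 878 CPM a nucleus and a summed level of 823 CPM. In the larger Sst cluster of 81 nuclei, led by Sst, Npy and Serpini1, Ache was read in 36 nuclei and its summed level was 208 CPM. Of these 81 nuclei, 30 had no named subclass. Without the 24 nuclei, 7 vectors entered the Sst to Pvalb comparison, and the Ache difference was 3.65 with an adjusted p of 1. The same nuclei had Chrm2 reads in 15 of 24 and a summed Chrm2 level of 206 CPM, whereas Chat, Slc18a3, Slc5a7 and Chrm1 had 0 reads in them.

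The other clusters with much Ache were the 17 nuclei led by Adarb2, Tshz2 and Resp18, with reads in 11 nuclei and 360 CPM, and the 27 nuclei led by Gpr83, Kit and Scg2, with reads in 13 nuclei and 260 CPM. Of the latter 27 nuclei, 21 were Pvalb-like, and their cluster stood above the larger Sst cluster in summed Ache level. The 97 nuclei led by Pvalb, Kcnc1 and Erbb4 had Ache in 18 nuclei and 56.9 CPM. Without the cluster that holds the 4 cholinergic nuclei, the SPN to GABAergic difference of Ache was −3.49 (adjusted p = 0.0266).

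**Figure D4:**
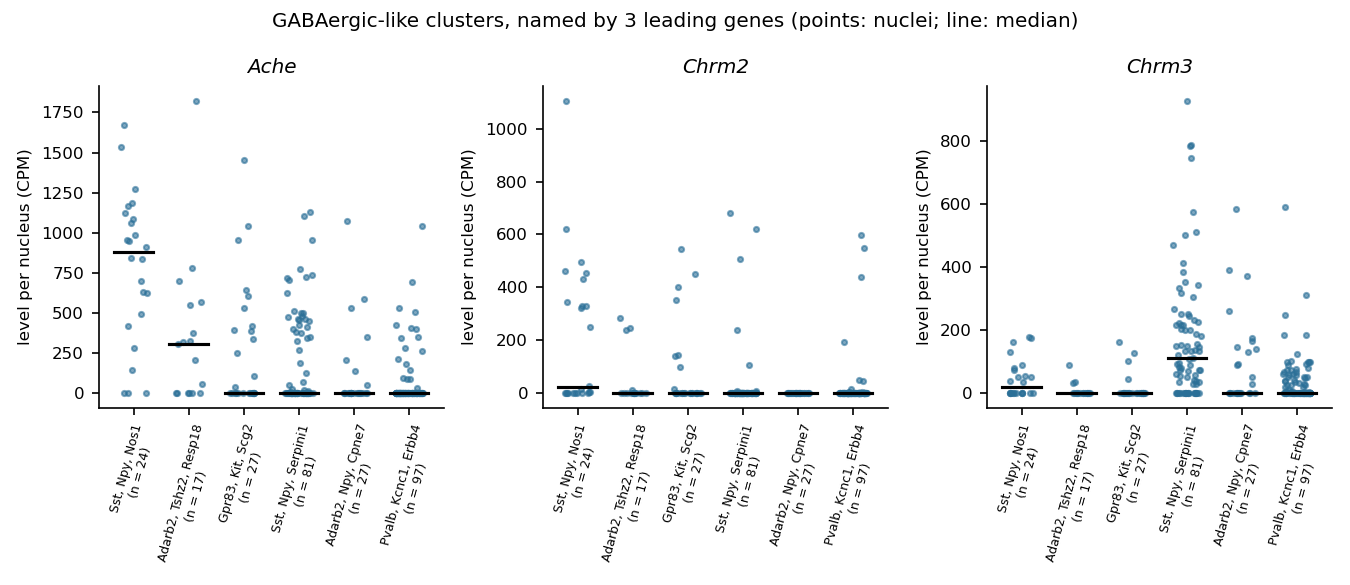
Level per nucleus (y axis, CPM) of Ache, Chrm2 and Chrm3 in the 6 GABAergic-like clusters, named by their 3 leading genes with the number of nuclei; points are nuclei and lines the median. Ache has a median of 878 CPM in the cluster led by Sst, Npy and Nos1, and Chrm3 was read in 61 of 81 nuclei of the cluster led by Sst, Npy and Serpini1.

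Chrm3, the Gq-coupled M3 receptor, was the most widely read member and was highest in glutamatergic-like nuclei. It was read in 4 of 106 astrocyte-like (3.77%, 1.04 to 9.38%), 0 of 50 oligodendrocyte-like, 49 of 161 SPN-like (30.4%, 23.4 to 38.2%), 137 of 273 GABAergic-like (50.2%, 44.1 to 56.3%) and 88 of 108 glutamatergic-like nuclei (81.5%, 72.9 to 88.3%). Summed levels in that order were 3.06, 0, 33.8, 78.6 and 150 CPM. The glial shares were lowest. The median depth was 300958.5 counts a nucleus in the astrocyte-like cluster and 246497 in the glutamatergic-like cluster, and the part of depth in these shares was not tested.

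Per vector, the lowest, median and highest Chrm3 sums were 10.3, 21.9 and 95.1 CPM in SPN-like nuclei and 61.5, 169 and 298 CPM in glutamatergic-like nuclei. The SPN-like sum was the lower one in 9 of 9 vectors, with means of 32.6 ± 28.3 and 161 ± 72.8 CPM (SD, n = 9 vectors). The log2 difference of −2.55 (SE 0.74) missed the threshold, with an adjusted p of 0.0714 by edgeR. The exact two-sided sign-flip permutation p of Chrm3 alone was 0.00391, the smallest that 9 vectors allow. Adjusted over all genes tested, the sign-flip p was 0.0899 and missed the threshold too. EdgeR called 0 of 3 members here, against 3.08% of all genes (1.66% called higher and 1.42% lower), with 1 at an unadjusted p under 0.05 and 1 called by DESeq2, Chrm3 in both cases. Ache averaged 36.1 ± 38.3 CPM in SPN-like and 67.6 ± 67.9 CPM in glutamatergic-like nuclei of these vectors, higher in 4 and lower in 5, with a log2 difference of −0.91 (SE 2.16, adjusted p = 0.981 by edgeR). With RLE in place of TMM scaling Chrm3 passed the threshold (−2.66, adjusted p = 0.0437).

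Between GABAergic-like and glutamatergic-like nuclei, Chrm3 averaged 85.3 ± 65.1 and 162 ± 64.4 CPM (SD, n = 12 vectors). It was lower in GABAergic-like nuclei in 11 of 12 vectors, CMV being the exception, with a log2 difference of −1.30 (SE 0.52, adjusted p = 0.259 by edgeR). Between SPN-like and GABAergic-like nuclei the means were 35.8 ± 29.8 and 63.3 ± 40.2 CPM, and the log2 difference was −1.07 (SE 0.82, adjusted p = 0.524 by edgeR).

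**Figure D5:**
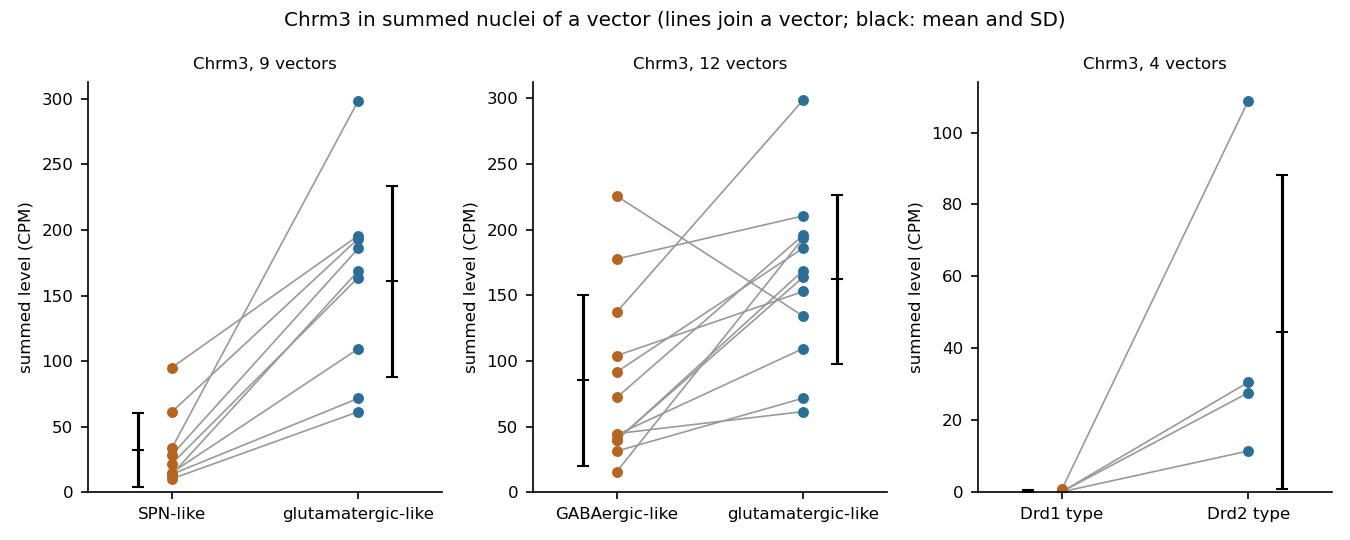
Summed Chrm3 level (y axis, CPM) in SPN-like against glutamatergic-like nuclei, GABAergic-like against glutamatergic-like nuclei and Drd1-type against Drd2-type nuclei. Each point is 1 vector, grey lines join the sums of a vector, and black marks give mean and SD. Drd1-type sums lie at or near 0 in all 4 vectors, against 11.4 to 109 CPM in Drd2-type nuclei.

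Within the SPN-like class, Chrm3 reads were found in 3 of 37 Drd1-type nuclei (8.11%, 1.70 to 21.9%) and 23 of 39 Drd2-type nuclei (59.0%, 42.1 to 74.4%). The rest of the 161 SPN-like nuclei had no named type, and unnamed clusters of 25, 24 and 29 nuclei came nearest to the Drd1 type. Over the whole class 49 nuclei had a Chrm3 read, so untyped nuclei held reads too. The low Drd1-type share thus covers the typed nuclei only. The Drd1-type sums were 0 CPM in AiE0078h, 0.638 in AiE0387m, 0 in hI56i and 0 in AiE0445h_3xC2. The Drd2-type sums were 27.6, 109, 30.5 and 11.4 CPM in the same vectors, so that the groups did not overlap. The fitted log2 difference was −7.33 (SE 3.39) and not called, with an adjusted p of 1 by edgeR, and 4 vectors cannot give an exact sign-flip p under 0.125. Chrm3 was the 1 member tested, and edgeR called 0 members, against 0.0891% of all genes (0.0356% called higher and 0.0535% lower), with 1 at an unadjusted p under 0.05 and 0 called by DESeq2.

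In the other named subclasses, Chrm3 was read in 56 of 78 Sst-like and 33 of 97 Pvalb-like nuclei, and in 12 of 25 Lamp5-like nuclei. Sst-like sums averaged 128 ± 75.4 CPM and Pvalb-like sums 37.5 ± 46.1 CPM (SD, n = 10 vectors), higher in 9 of 10 vectors, with a log2 difference of 2.34 (SE 1.05) and an adjusted p of 0.786 by edgeR. Among glutamatergic-like nuclei, 27 of 29 L2/3 IT-like nuclei had a Chrm3 read and a summed level of 192 CPM. The 12 L5 ET-like nuclei had reads in 10 nuclei and 45.6 CPM.

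Chrm1, the M1 receptor, was read in similar shares of SPN-like and glutamatergic-like nuclei. Reads were found in 3 of 106 astrocyte-like, 2 of 50 oligodendrocyte-like, 38 of 161 SPN-like (23.6%, 17.3 to 30.9%), 19 of 273 GABAergic-like (6.96%, 4.24 to 10.7%) and 27 of 108 glutamatergic-like nuclei (25%, 17.2 to 34.3%). Summed levels in that order were 1.16, 39.05, 87.7, 18.1 and 57.1 CPM, and the oligodendrocyte-like value comes from 596 reads in 2 nuclei. At 150000 counts a nucleus the neuronal shares were 21.5% of SPN-like, 6.15% of GABAergic-like and 24.8% of glutamatergic-like nuclei.

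The vectors disagreed about Chrm1. SPN-like and GABAergic-like sums averaged 53.4 ± 61.0 and 19.3 ± 27.9 CPM (SD, n = 12 vectors), higher in 6 and lower in 5 vectors, with a log2 difference of 1.15 (SE 1.99, adjusted p = 0.828 by edgeR). Against glutamatergic-like nuclei the SPN-like difference was 0.82 (SE 2.37, adjusted p = 0.984 by edgeR), and its sign turned when AiE0450h, AiE0475m or hI56i was left out. Between GABAergic-like and glutamatergic-like nuclei it was −1.23 (SE 1.71, adjusted p = 0.889 by edgeR). None of these 3 differences exceeded the spread between vectors. Chrm1 reached 1253 CPM in an SPN-like nucleus of AiE0450h, and it was read in 8 of 37 Drd1-type and 5 of 39 Drd2-type nuclei.

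Chrm2, the Gi-coupled M2 receptor, was read mainly in GABAergic-like nuclei. Reads were found in 3 of 106 astrocyte-like, 5 of 50 oligodendrocyte-like, 1 of 161 SPN-like (0.621%, 0.0157 to 3.41%), 43 of 273 GABAergic-like (15.8%, 11.6 to 20.6%) and 8 of 108 glutamatergic-like nuclei (7.41%, 3.25 to 14.1%). The glial reads were single or few, 4 in all astrocyte-like and 5 in all oligodendrocyte-like nuclei, and summed levels were 0.122, 0.328, 0.0506, 45.5 and 7.79 CPM in the same order of classes. The share of oligodendrocyte-like nuclei thus goes against their level, and no order is read from it.

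Chrm2 sums per vector had a lowest, median and highest value of 0, 56.9 and 120 CPM in GABAergic-like nuclei and of 0, 0 and 24.6 CPM in glutamatergic-like nuclei. The GABAergic-like sum was higher in 10 of 12 vectors, with means of 54.2 ± 36.1 and 5.61 ± 8.79 CPM, a log2 difference of 5.62 (SE 1.92) and an adjusted p of 0.143 by edgeR. It passed the threshold without CMV (6.24, adjusted p = 0.0380). Against SPN-like nuclei Chrm2 did not pass the filter on low counts. SPN-like sums averaged 0.0595 CPM, with 2 reads in all and 0 in 11 of 12 vectors, and GABAergic-like sums averaged 58.8 ± 31.8 CPM, lower in SPN-like nuclei in 11 of 12 vectors. Without that filter the log2 difference was −9.69 (SE 1.80, adjusted p = 5.74e-06 by edgeR). With 0 in 11 of 12 SPN-like sums this size depends on the prior count, and it is not read as a result.

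Within the GABAergic-like class Chrm2 was read in 22 of 78 Sst-like (28.2%, 18.6 to 39.5%), 10 of 97 Pvalb-like (10.3%, 5.06 to 18.1%) and 0 of 25 Lamp5-like nuclei, the last of which allows a share of up to 12%. Sst-like sums averaged 97.2 ± 68.6 CPM and Pvalb-like sums 25.02 ± 42.2 CPM, higher in 7 and lower in 1 of 10 vectors. The log2 difference was 4.42 (SE 1.87) and was not called, with an adjusted p of 0.733 by edgeR. Of the 22 Sst-like nuclei with Chrm2 reads, 19 also had Ache reads.

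Chrm4, the Gi-coupled M4 receptor, was read in few nuclei. It was read in 5 of 161 SPN-like nuclei (3.11%, 1.02 to 7.10%), 4 of 273 GABAergic-like nuclei, 1 of 106 astrocyte-like nuclei and 0 of 108 glutamatergic-like nuclei, with 155 reads over all 800 nuclei. The highest nucleus had 256 CPM. By type, 1 of 37 Drd1-type and 0 of 39 Drd2-type nuclei had a read, too few for a comparison of the types, and the part of depth or of the short annotated block in this was not tested. Chrm4 passed the filter on low counts in none of the 6 comparisons, and neither did Chat, Slc18a3 or Slc5a7.

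Glial nuclei held little of any member. In astrocyte-like and oligodendrocyte-like nuclei pooled, Ache sums per vector had a lowest, median and highest value of 0, 0 and 102 CPM, against 2.40, 109 and 199 CPM in neuronal nuclei. For Chrm1 the values were 0, 0 and 96.96 CPM in glial and 0, 42.9 and 171 CPM in neuronal nuclei. For Chrm3 they were 0, 0 and 8.51 CPM in glial and 5.14, 67.7 and 150 CPM in neuronal nuclei, with an overlap between 5.14 and 8.51 CPM. Summed GABAergic, striatal and glutamatergic markers had medians of 0 CPM in both glial classes, yet single nuclei held much of them. The highest values, in that order of lists, were 5214, 3510 and 2617 CPM in astrocyte-like nuclei. In oligodendrocyte-like nuclei they were 2249, 5121 and 1497 CPM. The part of such nuclei in the glial reads of members was not tested.

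EdgeR called 3 of 3 tested members lower in glial nuclei, against 32.6% of all genes called lower, 2.1% called higher and 34.7% called either way. The log2 differences over 15 vectors were −7.85 (SE 1.65, adjusted p = 0.000376) for Ache, −7.39 (SE 1.75, adjusted p = 0.00136) for Chrm1 and −10.12 (SE 1.52, adjusted p = 7.49e-06) for Chrm3 by edgeR. The median log2 difference of all genes was −2.73. Glial sums were 0 in 9 vectors for Ache, 12 for Chrm1 and 13 for Chrm3, so the fitted sizes depend on the prior count. With so many glial zeros, the filter on low counts passed these members mainly through their neuronal sums. A member low in neurons could hardly enter the test, so the count of 3 of 3 is not read as a result. Ache was lower in 14 of 15 vectors, Chrm1 in 13 and Chrm3 in 15. With no vector block the Ache (−2.90, adjusted p = 0.0722) and Chrm1 (−2.28, adjusted p = 0.310) calls were lost. In series S40324 alone Ache missed the threshold (−7.70, adjusted p = 0.0701), and in series S40326 alone Chrm1 did (−6.64, adjusted p = 0.0624).

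Most neuronal nuclei showed 1 muscarinic receptor gene or none. Counting Chrm1 to Chrm4, at least 1 was read in 8 of 106 astrocyte-like, 7 of 50 oligodendrocyte-like, 82 of 161 SPN-like, 169 of 273 GABAergic-like and 91 of 108 glutamatergic-like nuclei, and 2 or more in 2, 0, 11, 31 and 30 nuclei of these classes. No nucleus had all 4. The pair Chrm1 and Chrm3 met in 25 glutamatergic-like nuclei, where the product of both shares gives 22. Chrm3 and Chrm2 met in 10 Sst-like nuclei, where the product gives 15.8. Sst-like nuclei came mainly from the clusters led by Sst, Npy and Nos1 and by Sst, Npy and Serpini1, which differ in both genes. In these whole clusters the pair met in 6 (product 7.5) and 6 (5.27) nuclei. Ache and Chrm2 met in 27 GABAergic-like nuclei, where the product gives 16.7. The GABAergic-like class pools clusters that differ in both of these genes too. Within the cluster led by Sst, Npy and Nos1, Ache and Chrm2 met in 13 nuclei, where the product gives 13.1. The counts were 5 (product 3.11) in that led by Sst, Npy and Serpini1 and 5 (3.85) in that led by Gpr83, Kit and Scg2. They were 3 (2.59) in that led by Adarb2, Tshz2 and Resp18 and 1 (1.67) in that led by Pvalb, Kcnc1 and Erbb4. Nuclei of a vector share a sort, so these counts are given without a test.

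Across vectors, the number of 40 nuclei with a Chrm3 read ran from 2 in AiE0779m to 24 in hSyn1 and AiE0452h. For Ache it ran from 1 in AiE0410m to 21 in AiE0401h, for Chrm1 from 0 in AiE0390m to 12 in AiE0779m, and for Chrm2 from 0 in hSyn1 and AiE0391h to 9 in AiE0401h and AiE0475m. AiE0779m was thus highest for Chrm1 and lowest for Chrm3. The mix of classes differs between vectors, so these counts do not compare vectors within a cell class.

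The nicotinic side of the pathway was barely read. Of 16 nicotinic receptor subunit genes, 11 had a read in the 698 nuclei, none reached 10% of nuclei, and the most widely read, the subunit gene Chrnb2, had reads in 53 nuclei (7.59%). Chrna4, its usual partner subunit in the brain, had reads in 43 nuclei, 16.7% of glutamatergic-like ones. The remaining muscarinic receptor gene, Chrm5, was read in 2 nuclei. Among 8 chaperones and modulators of nicotinic receptors, 5 were read in at least 10% of nuclei, as were 5 of 8 genes of acetylcholine and choline handling.

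Some of the listed pathway genes differed between SPN-like and other neuronal nuclei, in both directions. Against glutamatergic-like nuclei, 4 of 26 pathway genes tested were higher and 4 lower in SPN-like nuclei, where 1.66% of all genes were called higher and 1.42% lower. Gnal, the G protein alpha subunit of the olfactory type, serves striatal dopamine signalling and was counted as a listed gene, not a muscarinic effector. It averaged 538 ± 124 and 29.04 ± 36.4 CPM (SD, n = 9 vectors, log2 5.35, SE 0.92, adjusted p = 0.00111 by edgeR). Adcy5, the main adenylyl cyclase of the striatum, averaged 751 ± 325 and 28.1 ± 34.2 CPM (log2 5.78, SE 1.03, adjusted p = 0.00168 by edgeR).

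Kcnj6, a GIRK channel subunit, averaged 0.148 ± 0.256 CPM in SPN-like and 137 ± 118 CPM in glutamatergic-like nuclei and was lower in 9 of 9 vectors (log2 −9.37, SE 1.38, adjusted p = 0.000231 by edgeR). Plcb4, a phospholipase C of the Gq side, averaged 6.21 ± 18.6 and 139 ± 97.2 CPM and was also lower in 9 of 9 vectors (log2 −10.06, SE 1.68, adjusted p = 0.000848 by edgeR). With SPN-like sums so low, the filter on low counts passed Kcnj6 and Plcb4 mainly through their glutamatergic-like sums. Such genes could hardly enter the test as anything but lower, and their fitted sizes depend on the prior count. Over the 26 genes the median log2 difference was −0.35, and over all genes tested it was 0.04.

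Against GABAergic-like nuclei, 7 of 30 pathway genes tested were higher and 3 lower in SPN-like nuclei, set against 3.19% and 5.34% of all genes tested in these directions. The smallest adjusted p values belonged to Gnal (548 ± 110 and 82.1 ± 54.5 CPM), Plcb4 (4.66 ± 16.1 and 132 ± 103 CPM), the G protein regulator Rgs4 (674 ± 245 and 103 ± 61.1 CPM) and the IP3 receptor gene Itpr1 (768 ± 352 and 181 ± 95.2 CPM), each given with SD over 12 vectors. Their adjusted p values ran from 3.28e-06 to 0.000109 by edgeR. Plcb4 passed the filter on low counts mainly through its GABAergic-like sums, so the same limit holds for it here. The median log2 difference of the 30 genes was −0.86, and that of all genes tested −0.62.

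Between the other neuronal groups edgeR called none of the pathway genes. It called 0 of 31 between GABAergic-like and glutamatergic-like nuclei (5 at an unadjusted p under 0.05, 8 called by DESeq2), 0 of 30 between Sst-like and Pvalb-like nuclei (2 and 6 by the same counts) and 0 of 18 between Drd1-type and Drd2-type nuclei (0 and 1). In glial against neuronal nuclei, 17 of 31 were lower and 1 higher, where 32.6% of all genes tested were lower and 2.1% higher, and the median log2 difference was −3.92, against −2.73 over all genes. The smallest adjusted p values were those of the potassium channel genes Kcnj9, Kcnj6, Kcnq5 and Kcnj3, from 1.83e-05 to 0.000125 by edgeR. The gene that was higher in glial nuclei was Gnao1, a Go protein subunit, with 910 ± 436 and 129 ± 64.9 CPM (SD, n = 15 vectors). The pathway lists were chosen with earlier results of these data known and are not independent evidence of a direction.

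Likeness to other genes was measured by Pearson's r of log2(CPM + 1) over 60 sums of a vector and a class, among 8581 genes read in at least 10% of nuclei. For Ache the 3 highest were Resp18 (0.79), Coro6 (0.76) and Trpc4 (0.76). For Chrm3 they were Ryr2 (0.93), Rims1 (0.89) and Slc4a10 (0.88), and for Chrm1 Ppp1r13b (0.57), Armcx5 (0.56) and Csrnp3 (0.54). The sums of a class share its depth and its common genes, so these values are descriptive and carry no p.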

How the data were processed

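Single nuclei sorted for the reporter were profiled with SMART-Seq v4, which amplifies full-length cDNA from polyadenylated RNA, and Nextera XT, per the labels' protocols. STAR 2.7.2a and mm10 are named per the submitters' processing notes, while for the annotation and the counting rule, introns included, nothing was given in the sources used here. Deposited were the authors' raw counts of 32285 genes in 2501 columns. The 800 columns with a label were matched by library name, 0 of them held values identical to another, and 1701 columns without one were not used. Symbols were matched for 32158 genes through GENCODE M21, which also gave positions and exon lengths.

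Nuclei with at least 1000 genes (698 of 800) were scaled to 1e6 counts and log transformed. They were clustered with scanpy 1.11.5 on 2000 variable genes (30 principal components, 15 neighbours, Leiden clustering at resolution 1) without the 61 members and pathway genes. Clusters were named for the class whose markers had the highest relative level, given at least 3 markers in 25% of its nuclei. These names, subclasses included, rest on RNA alone and so end in "-like", and no doublet caller was run on singly sorted nuclei. 1 marker of cholinergic neurons is not reported here. The members, the gene lists and the markers were chosen with earlier results of these data known, and the rule for names was set once the clusters had been seen. The genes named are the 8 members, up to 4 called pathway genes a comparison by adjusted p, and the 3 genes most like each member read in at least 10% of nuclei.

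Classes were compared on counts summed per vector and class, where a vector had 3 or more nuclei of each, with vector as a block, since both sums of a vector share its label. The quasi-likelihood F test of edgeR 4.0.16 (R 4.3.3) was used after filterByExpr and TMM scaling, and p-values were adjusted over all genes tested by Benjamini-Hochberg, with a threshold of 0.05. The standard error is the absolute log2 difference over the square root of F. DESeq2 1.42.0 and an exact sign-flip permutation test were alternatives. The naming of classes, the edgeR fit and the sign-flip test were tried on simulated data, and the DESeq2 fit was not. The labels do not say that vectors stand for separate animals, so p-values measure the spread between vectors, which may be technical. Fewer cells with a transcript and less RNA per cell cannot be told apart in a sum. A count of 0 is given the upper limit of 3 counts, and intervals are exact Clopper-Pearson intervals. Shares were also computed after thinning each nucleus to 150000 counts.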

Additional observations from a re-analysis of the deposited data

Results flagged for a closer look

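Of 14 groups of 4 to 10 vectors screened for a value far from the others, 3 held one. The nominal rate of 1 in 20 need not hold for skewed sums with many zeros, so no excess is read from this count. Chrm1 stood at 239.0 CPM in the glutamatergic-like sum of AiE0743m_3xC2, against 90.31 CPM in the next of 9 vectors of the comparison with SPN-like nuclei. Chrm3 stood at 156.6 CPM in the Pvalb-like sum of hSyn1, against 52.86 CPM in the next of 10 vectors. Chrm3 stood at 0.6378 CPM in the Drd1-type sum of AiE0387m, against 0 in the other 3 vectors, where any read stands out.

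The 102 nuclei with fewer than 1000 genes entered no comparison and held receptor reads too. Chrm3 had 711 reads in 2 of them, up to 3315 CPM in a nucleus. Chrm2 had 4 reads in 3 of them.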

How the results depend on the processing

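Of the counts of members called, 110 settings left the count within 1.5 times of that reported and 28 did not. Between SPN-like and glutamatergic-like nuclei 1 member, Chrm3, was called with RLE scaling, DESeq2 and a Leiden resolution of 2, and 0 with any vector left out; RLE moved the median log2 difference of all genes from 0.04 to −0.08. Between SPN-like and GABAergic-like nuclei 2 were called with no filter on low counts, 0 with marker scores and 0 in series S40326 alone, and 1 to 2 with a vector left out. Between GABAergic-like and glutamatergic-like nuclei 3 were called by DESeq2, 1 with no filter and 1 by the sign-flip test, and 0 to 2 with a vector left out. In glial against neuronal nuclei 5 were called with no filter, 1 with no vector block and 1 in series S40324 alone, and 3 with any vector left out. Between Sst-like and Pvalb-like nuclei DESeq2 called 3. There 0 were called with no vector block, minimums of 500 and 2000 genes, Leiden resolutions of 0.5 and 2, marker scores, series S40326 alone, the sign-flip test and without the cluster led by Sst, Npy and Nos1, and 0 to 1 with a vector left out. Drd1-type against Drd2-type nuclei gave 0 with any vector left out.

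Signs turned for members that were not called. Chrm1 between SPN-like and glutamatergic-like nuclei ran from −0.095 to 1.95 with a vector left out, being −0.095 without AiE0450h and −0.089 without AiE0475m or hI56i, and Ache there was 0.47 in series S40326 alone. Chrm1 between GABAergic-like and glutamatergic-like nuclei was 0.12 in series S40326 alone. The cause of these changes was not tested. The 2 settings that leave out a cluster were chosen after seeing the data. Too few vectors remained for a value with a minimum of 2000 genes in glial nuclei, in series S40324 alone outside the glial comparison, and for the Drd types with minimums of 500 and 2000 genes, a Leiden resolution of 0.5 and either series alone. Classes were paired within a vector, by the vector block and the sign-flip test. By the replicate numbers in the titles, no paired analysis was possible because they count nuclei within a vector.

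Chat, Slc18a3, Slc5a7 and Chrm4 were read in at most 10 nuclei each and passed the filter on low counts in no comparison; whether depth or few cells with the transcript sets this was not tested. The classes rest on RNA alone, and vectors, sorts and mice cannot be told apart.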
